A study of Rattus norvegicus with 50 samples.

Results

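The stearoyl-CoA desaturase family was followed through the lungs of rats that had breathed a titanium dioxide (TiO2) nano-aerosol. Its members were the 3 array symbols Scd1, Scd and Scd4, of 25885 symbols on the array, and each was read by 1 probe, over 14 of 58717 gene spots. The array's Scd1 is the gene now named Scd, and the array's Scd is the gene now named Scd2; array symbols are used here. The genes were chosen by name, with their exposed-minus-control values in these lungs already known. Those values are therefore given as a description, without a test. Lung RNA came from the accessory lobe of 50 male F344 rats, 12 weeks of age in the labels, on 1 single-colour Agilent array per rat. Exposed rats inhaled P25 TiO2 through the nose at 10 mg/m3 over 4 weeks, with sessions of 6 h on 5 days of each week, and control rats inhaled filtered air. Lungs were taken right after the exposure ended (D0), or after 3 (D3), 28 (D28), 90 (D90) or 180 (D180) further days, with 5 control and 5 exposed rats at each time. The labels give the same age for all 10 groups, although lungs were taken up to 180 days after exposure. Age at necropsy therefore differed between times. Strain, sex and lobe were shared by all 10 groups, and lung was treated as a whole tissue, so that fewer cells of a type and less RNA per cell cannot be told apart.

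Stearoyl-CoA desaturases sit in the membrane of the endoplasmic reticulum and place the first unsaturated bond in saturated fatty acids, which turns stearate into oleate and palmitate into palmitoleate. They take electrons from cytochrome b5, and their products go into membrane phospholipids, triglycerides and cholesterol esters. Transcription of the family is known to follow the lipid regulators SREBP-1c and LXR and the feeding state, and in the lung the pathway serves the alveolar type 2 cell, the maker of surfactant lipids. The gene named Scd1 on the array is the isoform best known from liver and fat, and the array's Scd (Scd2) that best known from brain. Rats carry a further relative, LOC681458 on the array. It was taken to be the gene that RefSeq names Scd3 in assembly GRCr8, and this match was not tested. The LOC681458 probe lies on the - strand in rn4, and Scd3 lies on the + strand in GRCr8. For Scd1, Scd and Scd4, the strands of probe and promoter were the same. The promoter given for Scd3 may therefore not belong to LOC681458.

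The probes are shown because these genes are close relatives, whose signals mean something separately only where the probes differ. The Scd1 probe (rn4 chr1:249458860-249458919, - strand) started at base 4415 of its transcript, and the Scd probe (rn4 chr1:249370837-249370896, + strand) at base 4727. The Scd4 probe (rn4 chr1:249403950-249404009, + strand) started at base 912, and the LOC681458 probe (rn4 chr1:249023485-249023544, - strand) at base 816. All have 60 bases. For Scd1 and Scd, whose probes lie far toward the 3' end, the first 30 bases are printed.
Scd1: gccaaagtgcaagcctacctactcactgcc
Scd: gggatcctcagcagaggagtatttaagtcc
Scd4: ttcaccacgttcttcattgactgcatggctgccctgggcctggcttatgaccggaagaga
LOC681458: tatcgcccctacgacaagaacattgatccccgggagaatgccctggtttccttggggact
The longest run of bases that any pair of the 4 probes shared, on either strand, was 8 bases. In the best ungapped alignment, the pair with most matches (Scd and LOC681458) had 24 identical bases of 59 aligned. The probes were compared with each other and not with the transcripts of the relatives. Binding of a probe to a relative's RNA was therefore not tested.

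The 250 bases before the start site of each gene, from the RefSeq promoter table of assembly GRCr8, are shown because the family's signals moved together. Capitals mark exact matches to the CCAAT box (CCAAT) and the TATA box (TATAAA) on either strand.
Scd (chr1:253231732-253231981, - strand): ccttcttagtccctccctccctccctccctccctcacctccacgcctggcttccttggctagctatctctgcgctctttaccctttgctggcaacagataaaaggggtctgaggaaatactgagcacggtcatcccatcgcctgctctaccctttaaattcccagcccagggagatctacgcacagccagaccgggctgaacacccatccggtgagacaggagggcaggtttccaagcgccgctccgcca
Scd2 (chr1:253118127-253118376, + strand): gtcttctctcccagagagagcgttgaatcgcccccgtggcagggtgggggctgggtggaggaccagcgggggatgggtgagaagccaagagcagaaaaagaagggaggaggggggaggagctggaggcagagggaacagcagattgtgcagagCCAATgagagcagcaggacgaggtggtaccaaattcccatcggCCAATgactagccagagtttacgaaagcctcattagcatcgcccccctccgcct
Scd4 (chr1:253152269-253152518, + strand): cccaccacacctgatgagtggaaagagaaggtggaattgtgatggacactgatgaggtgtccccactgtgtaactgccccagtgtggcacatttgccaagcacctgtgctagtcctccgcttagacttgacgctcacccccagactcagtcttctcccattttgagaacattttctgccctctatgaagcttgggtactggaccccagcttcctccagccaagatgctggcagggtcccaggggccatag
Scd3 (chr1:253027803-253028052, + strand): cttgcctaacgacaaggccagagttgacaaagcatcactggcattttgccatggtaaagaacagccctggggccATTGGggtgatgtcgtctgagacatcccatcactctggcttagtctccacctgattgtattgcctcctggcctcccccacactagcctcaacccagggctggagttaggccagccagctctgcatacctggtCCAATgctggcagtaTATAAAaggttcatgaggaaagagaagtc
Scd2 held 2 CCAAT matches, which began 97 and 54 bases before the start site, and Scd3 held 2, with a TATAAA match from 29 to 24 bases before it. The windows of Scd and Scd4 held neither motif. Of 33469 promoters of the same length, 34.0% held CCAAT at least once, 9.42% held it at 2 or more places and 12.9% held TATAAA. None of the 4 windows held the E-box CACGTG (5.59% of all promoters), the D-box TTATGTAA (0.828%), the nuclear receptor motif AGGTCA (14.1%), the sterol element TCACCCCAC (0.409%) or GGGCGG (30.5%), on either strand. Only exact matches within these 250 bases were sought, so variant sites and sites further away were not covered. For the rarer motifs, absence from 4 windows is also what most promoters would show. The longest run shared by any pair of windows was 11 bases (Scd3 and Scd4).

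All 4 probes were well above background on all 50 arrays, and none of their spots was saturated. Values below are quantile-normalized log2 signals, so that 1 unit is a 2-fold difference, and levels were compared within a probe and not between probes. Median processed signal per array ranged from 198 to 473.5, and 68.75% to 84.53% of gene spots lay well above background. Within a group, arrays correlated at 0.973 to 0.996. The arrays lay on 7 slides: D0, D3 and D28 shared 4 of them and D90 and D180 the other 3, apart from Exposed D3 replicate 1, which was on a slide of the later days. The tissue label was checked with Sftpc, Sftpb, Ager, Scgb1a1, Foxj1 and Pecam1, each well above background on 50 arrays. Chi3l1, a chitinase-like secreted protein, was higher in all 5 exposed rats than in all 5 controls at each time, by 1.92, 1.61, 1.15, 0.60 and 0.59 on the log2 scale from D0 to D180.

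**Figure D1:**
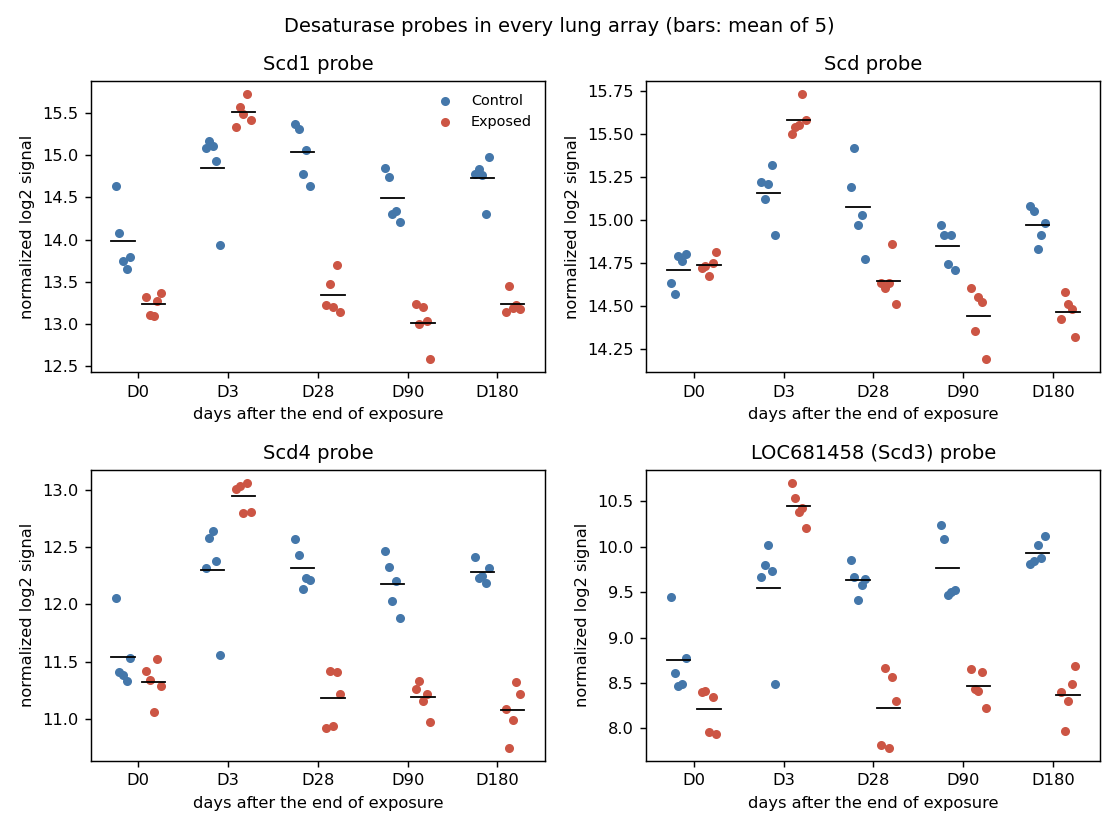
Normalized log2 signal of the 4 desaturase probes (y axis, 1 panel per probe) in each of the 50 arrays by day after the end of exposure, with control rats in blue and exposed rats in red; bars are means of 5 rats. Exposed means lay above control means at D3 and below them at D28, D90 and D180, and the control means were lower at D0 than at D3.

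Scd1 was under-expressed in exposed lungs at D0, over-expressed at D3, and under-expressed again from D28 to D180, with the largest difference at D28. At D0, Scd1 read 14.64, 14.08, 13.75, 13.65 and 13.79 in the controls, and 13.32, 13.11, 13.10, 13.27 and 13.37 in the exposed rats. Every exposed rat lay below every control, with control replicate 1 the highest. At D3, Scd1 read 15.08, 15.17, 15.11, 14.93 and 13.94 in the controls, and 15.33, 15.57, 15.49, 15.72 and 15.42 in the exposed rats. Every exposed rat now lay above every control, and control replicate 5 stood below the other controls. At D28, Scd1 read 15.37, 15.31, 14.78, 15.06 and 14.64 in the controls, and 13.23, 13.48, 13.20, 13.70 and 13.14 in the exposed rats. The groups did not overlap. At D90, Scd1 read 14.85, 14.74, 14.30, 14.34 and 14.21 in the controls, and 13.24, 13.00, 13.20, 13.04 and 12.59 in the exposed rats. At D180, Scd1 read 14.78, 14.83, 14.76, 14.30 and 14.98 in the controls, and 13.14, 13.45, 13.19, 13.23 and 13.18 in the exposed rats. All 5 exposed rats were below all 5 controls at both of these times.

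The fitted difference for Scd1, exposed minus control on the log2 scale, was -0.75 ± 0.18 (SE, n = 5 per group) at D0 and 0.66 ± 0.18 at D3. At D28, D90 and D180 it was -1.68, -1.48 and -1.49, each with an SE of 0.18, which corresponds to a signal 3.20-fold, 2.78-fold and 2.81-fold lower. The D3 value leaned on control replicate 5: without that array it was 0.44. Within single slides that held both groups, the Scd1 difference ran from -0.98 to -0.39 at D0 and from 0.46 to 0.87 at D3. At D28 it spanned -1.97 to -1.08, and the slides of D90 and D180 gave -1.66 to -1.34 and -1.74 to -1.35.

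Scd4, a less studied desaturase of the same cluster, was also higher in exposed lungs at D3 and lower at D28, D90 and D180, with its largest difference at D180, and its groups overlapped at D0. At D0, Scd4 read 12.06, 11.41, 11.38, 11.33 and 11.53 in the controls, and 11.42, 11.34, 11.06, 11.52 and 11.29 in the exposed rats. At D3, Scd4 read 12.32, 12.58, 12.64, 12.38 and 11.56 in the controls, and 13.01, 13.03, 12.80, 13.06 and 12.81 in the exposed rats. The groups did not overlap at D3, where control replicate 5 was again the lowest. At D28, Scd4 read 12.57, 12.43, 12.13, 12.23 and 12.21 in the controls, and 10.92, 11.42, 10.94, 11.41 and 11.22 in the exposed rats. At D90, Scd4 read 12.47, 12.33, 12.03, 12.20 and 11.88 in the controls, and 11.26, 11.33, 11.16, 11.22 and 10.97 in the exposed rats. At D180, Scd4 read 12.41, 12.23, 12.25, 12.19 and 12.32 in the controls, and 11.09, 10.75, 10.99, 11.32 and 11.22 in the exposed rats. From D28 on, all 5 exposed rats were below all 5 controls at each time. The Scd4 difference was -0.22 ± 0.15 (SE, n = 5 per group) at D0, followed in order of time by 0.64, -1.13, -0.99 and -1.21, all with an SE of 0.15. Without control replicate 5 the D3 value was 0.46. Within single slides the difference ran from 0.40 to 0.73 at D3 and from -1.40 to -0.71 at D28.

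Scd, the gene now named Scd2, moved least of the members, in log2 units. At D0, Scd read 14.63, 14.57, 14.79, 14.76 and 14.80 in the controls, and 14.72, 14.73, 14.67, 14.75 and 14.81 in the exposed rats, which overlapped. At D3, Scd read 15.22, 15.12, 15.21, 15.32 and 14.91 in the controls, and 15.50, 15.54, 15.55, 15.73 and 15.58 in the exposed rats, and the latter were all higher. At D28, Scd read 15.19, 15.42, 14.97, 15.03 and 14.77 in the controls, and 14.63, 14.60, 14.63, 14.86 and 14.51 in the exposed rats. Here 4 of the 5 exposed rats lay below all controls, and exposed replicate 4 overlapped with them. At D90, Scd read 14.97, 14.91, 14.74, 14.91 and 14.71 in the controls, and 14.60, 14.35, 14.55, 14.52 and 14.19 in the exposed rats. At D180, Scd read 15.08, 15.05, 14.83, 14.91 and 14.98 in the controls, and 14.42, 14.58, 14.51, 14.48 and 14.32 in the exposed rats. All exposed rats were below all controls at D90 and D180. The Scd difference was 0.03 ± 0.09 (SE, n = 5 per group) at D0, followed in order of time by 0.43, -0.43, -0.41 and -0.51, all with an SE of 0.09, and at no time did it reach 1.5-fold. Within single slides it ran from 0.23 to 0.56 at D3 and from -0.59 to -0.11 at D28.

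Non-overlap of the groups was read for the members at each time as a description, since these values chose them. All 5 exposed rats lay below all 5 controls for 1 of the 3 members at D0, for 2 at D28 and for all 3 at both later times, and above them for 3 of 3 at D3. The same held for 3.77%, 1.57%, 1.63% and 1.45% of genes measured at D0, D28, D90 and D180 (exposed below controls), and for 3.36% at D3 (exposed above controls), with 1 probe per gene.

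**Figure D2:**
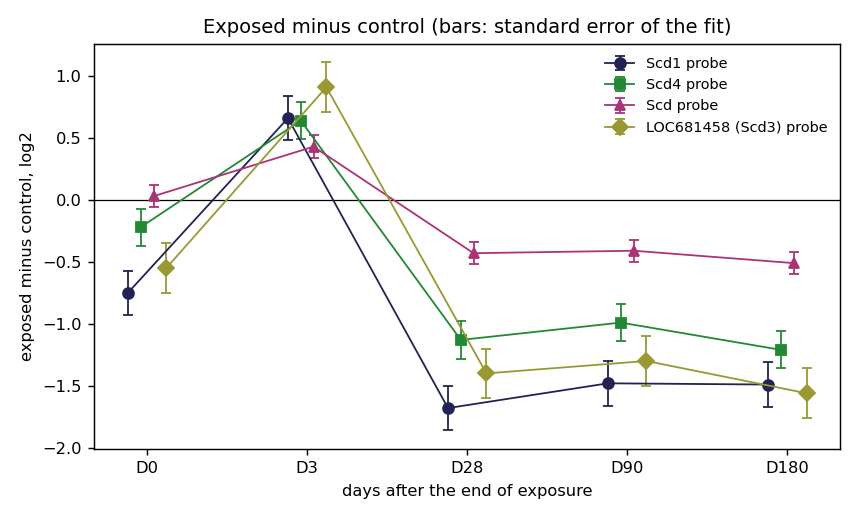
Exposed minus control difference (y axis, log2) of the 4 desaturase probes by day after the end of exposure (x axis); points are fitted differences over 5 rats per group and bars are their standard errors. Scd1 runs from 0.66 at D3 to -1.68 at D28, and Scd from 0.43 to -0.43.

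The group means ranked alike for the members at the upper end and less so below it. Exposed D3 lungs had the highest mean of the 10 groups for each member: 15.51 ± 0.15 (SD, n = 5) for Scd1, 12.94 ± 0.13 for Scd4 and 15.58 ± 0.09 for Scd. The next groups in the order were Control D28 for Scd1 (15.03 ± 0.32) and Scd4 (12.31 ± 0.18) and Control D3 for Scd (15.15 ± 0.15). Exposed D3 overlapped in range with the next group for Scd1 only. Below it, every neighbouring pair in the order had overlapping ranges for every member. The lowest means were 13.01 ± 0.26 for Scd1 in Exposed D90, 11.07 ± 0.22 for Scd4 in Exposed D180 and 14.44 ± 0.17 for Scd in Exposed D90. From Exposed D0 to Exposed D3, Scd1 rose from a mean of 13.23 to 15.51, Scd4 from 11.33 to 12.94 and Scd from 14.74 to 15.58, and at D3 all 5 rats exceeded all 5 rats of D0 for each member. These means share the exposed arrays with the differences above and were not tested.

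The control rats alone were compared between times. Time and age at necropsy cannot be told apart in this contrast. The members were chosen with their exposed-minus-control values known, and those values use the same control arrays. The p-values of members between control times are therefore not independent of that choice. A gene was called differentially expressed at 1.5-fold or more with an adjusted p under 0.05 (limma, Benjamini-Hochberg over 29549 probes). Between Control D0 and D3, Scd1 rose by 0.86 ± 0.18 (SE, n = 5 per group; limma adjusted p = 0.00131) and Scd4 by 0.76 ± 0.15 (adjusted p = 0.000432). Scd differed by 0.44 ± 0.09 (adjusted p = 0.000557), short of the fold limit. So 2 of the 3 member probes were called higher at D3, where 1.47% of all probes were called higher and 0.778% lower. With slide as a block the differences were 0.89, 0.81 and 0.45, with adjusted p = 0.000842, 9.51e-05 and 9.41e-05 for Scd1, Scd4 and Scd.

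Later on, no member was called between consecutive control times. From D3 to D28 the differences were 0.18 for Scd1, 0.02 for Scd4 and -0.08 for Scd (adjusted p = 1 for each), while 0.393% of probes were called higher and 0.267% lower. From D28 to D90, Scd1 differed by -0.54 ± 0.18 (limma adjusted p = 0.046), under the fold limit, and Scd4 and Scd by -0.13 and -0.23 (adjusted p = 0.559 and 0.0767). These times lie on different slides, and 3.49% of probes were called higher and 1.33% lower. From D90 to D180, the members differed by 0.24, 0.10 and 0.12 in the order Scd1, Scd4 and Scd (adjusted p = 1), with 0.00338% of probes called higher and 0.0169% lower. Over the whole span, Control D180 exceeded Control D0 by 0.75 ± 0.18 for Scd1 (adjusted p = 0.00423) and 0.74 ± 0.15 for Scd4 (adjusted p = 0.000445), so that both were called, while Scd differed by 0.26 ± 0.09 (adjusted p = 0.0383) without reaching 1.5-fold. Of all probes 2.86% were called higher and 2.5% lower. D0 and D180 shared no slide, and with slide as a block neither call held: the values were 0.85 (limma adjusted p = 0.343) and 0.64 (limma adjusted p = 0.36). In that fit only Exposed D3 replicate 1 joined the slides of D0 to those of D180. Loss of the calls there cannot tell an effect of slide from low precision.

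Likeness to each member was measured by Pearson's r over the 50 arrays after each slide's mean was taken off. Among 25205 genes other than the members, LOC681458 had the most similar pattern to each member. Its r was 0.98 with Scd1, 0.99 with Scd4 and 0.91 with Scd, and after group means were taken off it was 0.71, 0.91 and 0.25. Arrays of a group share treatment and time, so these values are descriptive and carry no p. Whether these probes bind RNA of more than 1 relative was not tested. LOC681458 ranged from 8.47 to 9.45 in Control D0 and from 7.94 to 8.41 in Exposed D0, from 8.49 to 10.02 in Control D3 and from 10.21 to 10.70 in Exposed D3. It ranged from 9.41 to 9.85 against 7.79 to 8.66 at D28, from 9.47 to 10.24 against 8.23 to 8.65 at D90, and from 9.81 to 10.12 against 7.97 to 8.69 at D180, controls before exposed. The groups did not overlap at any of the 5 times. Non-overlap in the same direction held for 3.77% of genes at D0, 3.36% at D3 and 1.45% to 1.63% later. The sign of the difference was that of Scd1 at each time, a pattern that r over all arrays already holds. The LOC681458 differences were -0.55, 0.91, -1.40, -1.30 and -1.56 from D0 to D180 (SE 0.20, n = 5 per group). At D0 LOC681458 was not called (1.46-fold, limma adjusted p = 0.0724). It was called at each later time (limma adjusted p from 2.74e-06 to 0.00163). Among the members, slide-centred r was 0.97 for Scd1 with Scd4, 0.90 for Scd1 with Scd and 0.93 for Scd with Scd4, and with group means removed 0.76, 0.59 and 0.37.

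Other genes with the highest r to a member were Zp1, a glycoprotein of the egg coat (0.91 with Scd1, 0.87 with Scd4 and 0.83 with Scd), and Fads2, the desaturase that starts the synthesis of polyunsaturated fatty acids (0.76, 0.82 and 0.87 in the same order). Acly, which makes the acetyl-CoA used in fatty acid synthesis, reached 0.86 with Scd and 0.79 with Scd4, and Tlcd1, a membrane protein, reached 0.84 with Scd. Nudt5, a hydrolase of ADP-ribose, and Hgfac, a protease that activates hepatocyte growth factor, both reached 0.75 with Scd1, and Hyou1, a chaperone of the endoplasmic reticulum, reached 0.79 with Scd4. Removing group means lowered all of these. Zp1 then had 0.51, 0.23 and 0.22, and Fads2 0.33, 0.59 and 0.04, with Scd1, Scd4 and Scd. Acly had 0.63 with Scd and 0.44 with Scd4, and Tlcd1 had 0.41 with Scd. Nudt5 and Hgfac fell to 0.06 and 0.05 with Scd1, and Hyou1 to -0.06 with Scd4. Zp1 differed between exposed and control lungs by -1.36, 0.92, -1.70, -1.29 and -1.14 from D0 to D180 (SE 0.29), the sign of Scd1 at each time. Zp1 was picked by r over these same exposed and control arrays, so the match of signs is no separate result.

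The 3 genes of lowest r to each member came to 4 genes in all. Cpt1a, which admits long-chain fatty acids to the mitochondrion, had r of -0.96 with Scd, -0.92 with Scd4 and -0.89 with Scd1. Acaa2, the thiolase of the last step of beta-oxidation, had -0.90 with Scd and -0.84 with Scd1, and Acadl, an acyl-CoA dehydrogenase, had -0.82 with Scd and -0.84 with Scd4. Aqp3, a channel for water and glycerol, had -0.89 with Scd1 and -0.86 with Scd4. With group means removed Cpt1a had -0.52, -0.15 and -0.31 with Scd, Scd4 and Scd1. Cpt1a differed between exposed and control lungs by -0.12, -0.20, 0.41, 0.49 and 0.61 from D0 to D180 (SE 0.09), and Aqp3 by 0.62, 0.41, 1.57, 2.15 and 1.85 (SE 0.24). The sign of the Cpt1a difference was opposite to that of Scd1 and Scd4 at D3, D28, D90 and D180 and the same at D0. Cpt1a was likewise picked by r over these arrays, so its opposite signs are no separate result.

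**Figure D3:**
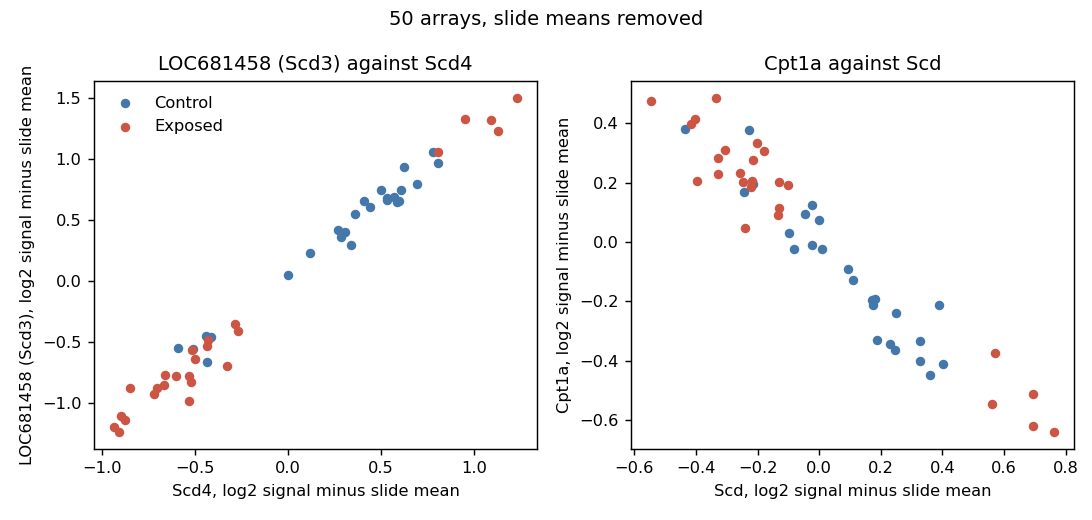
Left, LOC681458 against Scd4, and right, Cpt1a against Scd, as log2 signal minus the slide mean on both axes. Each panel has 1 point per array for 50 arrays (controls blue, exposed red). The points rise together on the left (r = 0.99) and run in opposite directions on the right (r = -0.96).

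The 6 lists of lipid genes, with 122 genes measured in all and without the members, were read at each time. At D0, 10 of them were called higher and 1 lower, at D3 10 higher and 2 lower, at D28 1 higher, at D90 1 higher and at D180 2 higher, with none lower from D28 on. Over all genes, 2.76% were called higher and 1.5% lower at D0, and 1.97% and 1.51% at D3. The shares at D28 were 0.861% and 0.456%, those at D90 0.238% and 0.131%, and those at D180 0.234% and 0.0793%. The median of the 122 log2 differences was 0.04, 0.11, 0.07, 0.07 and 0.02 from D0 to D180, against medians of -0.01, -0.01, 0.00, 0.00 and 0.00 over all genes. The D3 count rested partly on control replicate 5, without which 7 lipid genes were called in all.

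Of 25 other desaturases, elongases and their electron donors, 1 was called higher at D0, 2 at D3 and none later. Degs2, which makes phytoceramides, rose by 1.18 ± 0.13 at D0 (limma adjusted p = 6.69e-09) and 1.28 at D3 (adjusted p = 1.58e-09). The other call at D3 was Elovl4, an elongase of very long chains (adjusted p = 0.0252). Its probe was well above background on 5 of 50 arrays, with 3 of 5 in Exposed D3 and 0 of 5 in Control D3, so no size is given. Fads1 and Fads2 did not reach the fold limit: Fads1 differed by 0.53 ± 0.10 at D0 (adjusted p = 0.000107), and Fads2 by 0.54 ± 0.13 at D3 (adjusted p = 0.00245) and -0.40 at D180 (adjusted p = 0.155). The elongases Elovl5 and Elovl6, of polyunsaturated chains and of palmitate, differed by -0.25 to -0.14 and by -0.12 to 0.19, with adjusted p of 0.349 or above. A second, less bright Elovl6 probe differed by 0.48, 0.06, -0.60, 0.13 and 0.33 from D0 to D180, with limma adjusted p of 0.329 or above.

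Of 20 genes of fatty acid synthesis, 1 was called higher at D0 and 2 at D3. Acsl4, which activates arachidonate, rose by 0.72 ± 0.08 at D0 (limma adjusted p = 3.53e-09) and 0.75 at D3 (adjusted p = 2.45e-09), and Slc25a1, the citrate carrier, rose by 0.61 ± 0.12 at D3 (adjusted p = 0.000313). Fasn, the fatty acid synthase, differed by 0.55 ± 0.13 at D3 (adjusted p = 0.00323) without reaching 1.5-fold, and by -0.25, -0.16 and -0.23 at D28, D90 and D180 (adjusted p = 0.35, 1 and 0.788). Acaca, the acetyl-CoA carboxylase, differed by -0.13, -0.17 and -0.34 at these times (adjusted p = 0.709, 1 and 0.525).

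The transcriptional regulators of lipid synthesis changed little at the level of RNA. Of 22, the coactivator Ppargc1a was called lower at D3 (-0.92 ± 0.22, limma adjusted p = 0.00291), and no other was called at any time. Srebf1, which encodes SREBP-1c, differed by 0.26 at D3 and -0.14 at D28 (SE 0.19, adjusted p = 0.478 and 0.769). Insig1, which holds SREBP in the endoplasmic reticulum, differed by 0.02 to 0.16 across the 5 times, Mlxipl (ChREBP, the glucose-sensing factor) by -0.29 to 0.44 and Nr1h3 (LXR-alpha) by 0.02 to 0.15, and none reached the fold limit. Of 10 LXR targets, 2 rose at D3: Apoc1, a small apolipoprotein, by 1.17 ± 0.19 (adjusted p = 1.9e-05) and Lpcat3, a phospholipid-remodelling enzyme, by 0.60 ± 0.06 (adjusted p = 9.92e-10).

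Cholesterol synthesis genes were called at D0 and D3. Of 22, 7 rose at D0, among them Hmgcs1 by 0.82 ± 0.12 (limma adjusted p = 7.17e-07), Idi1 by 0.79 (adjusted p = 1.61e-06) and Dhcr7 by 0.73 (adjusted p = 1.34e-06), when Scd1 was lower in exposed lungs. At D3, 3 rose, Fdps by 0.78 (adjusted p = 5.09e-11), and none was called later. The list median was 0.46 at D0 and 0.28 at D3. Of 25 PPAR-alpha targets, which mostly serve fatty acid oxidation, Acot1, an acyl-CoA thioesterase, rose by 1.08 ± 0.25 at D28 (adjusted p = 0.00629), 1.57 at D90 (adjusted p = 8.22e-05) and 1.92 at D180 (adjusted p = 2.16e-06). Angptl4, an inhibitor of lipoprotein lipase, rose by 0.86 at D0 and 1.04 at D3 (adjusted p = 0.000597 and 6.08e-05), Ucp3, a mitochondrial carrier, fell by 0.71 at D3 (adjusted p = 0.0173), and the kinase Pdk4 was called lower at D0 with a difference of -1.15 ± 0.40 at the limit of the threshold (adjusted p = 0.05 after rounding). The Pdk4 probe was well above background on 3 of 5 arrays of Control D0 and 1 of 5 of Exposed D0. Cpt1a was called at D180.

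**Figure D4:**
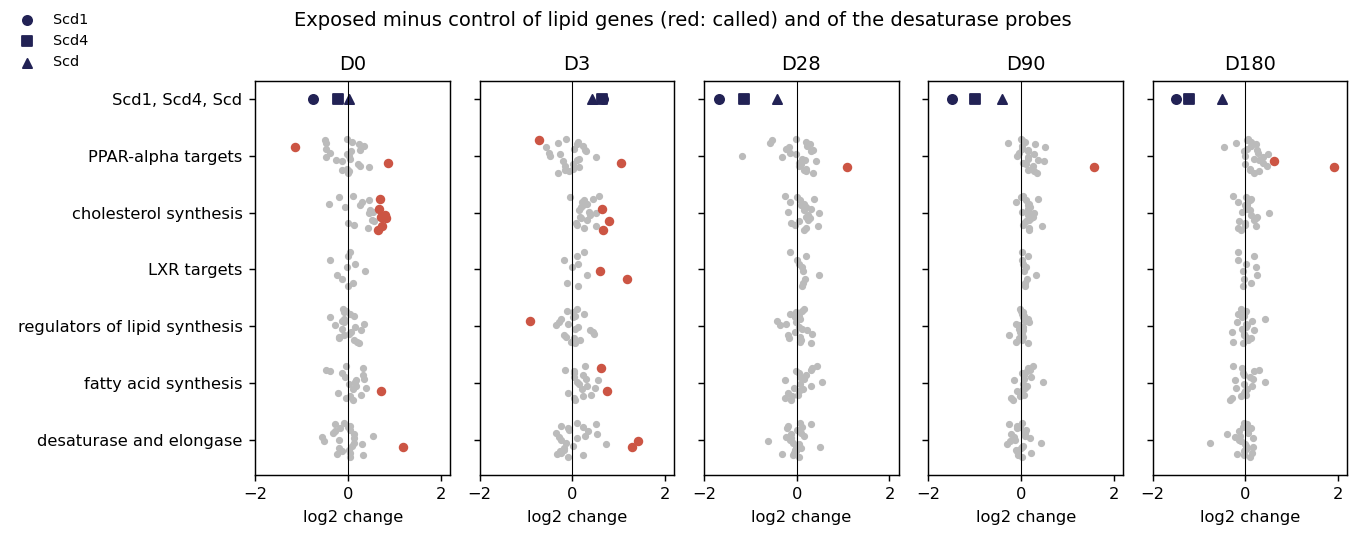
Exposed minus control difference (x axis, log2) of each gene of 6 lipid lists (rows) at D0, D3, D28, D90 and D180 (panels); red points were called at 1.5-fold and an adjusted p under 0.05, grey points were not, and dark symbols in the top row are Scd1, Scd4 and Scd, shown without a test. At D28 the members read -1.68, -1.13 and -0.43, and 1 of 122 lipid genes was called.

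Markers of cell types that express lipid genes were read beside the members. The adipocyte list had 0 of 12 measured genes called at any time, and the mean level of the list ranged from 7.13 to 7.91 in Exposed D28 against 7.03 to 7.45 in Control D28, and from 7.02 to 7.35 in Exposed D3 against 6.94 to 7.75 in Control D3. Its defining markers Plin1 and Adipoq, the lipid droplet coat and the fat hormone, were well above background on 1 and 30 of 50 arrays, and Cidec, another droplet protein, on 49. Of the other listed genes, Lep and Ucp1 were so on 9 arrays each and Pck1 on 20. The absence of calls and the list mean therefore rest partly on weak signals. Of 12 alveolar type 2 markers, 2 rose at D0 and at D3, the lysolipid acyltransferase Lpcat1 by 0.62 and 0.87 and the mucin Muc1 by 0.71 and 0.87, and none was called from D28 on. The surfactant lipid transporter Abca3 differed by 0.00 to 0.14 (SE 0.21). A second, less bright Abca3 probe differed by 0.09, 0.30, 0.28, 0.25 and 0.00 from D0 to D180, with limma adjusted p of 0.0508 or above. Surfactant protein gene Sftpc lay at the top of the normalized scale (19.01) on 22 of 50 arrays, among them all 5 of Exposed D90, so its differences are not read here; none of its spots was marked as saturated. The mean of the type 2 list, with Sftpc, Lpcat1 and Muc1 among its 12 genes, was 15.72 to 15.81 in Exposed D28 against 15.54 to 15.64 in Control D28. It was 15.76 to 15.81 in Exposed D3 against 15.52 to 15.57 in Control D3. Of 14 alveolar macrophage markers, 2 or 3 rose at each time, among them Spp1, the matrix protein osteopontin, by 2.40, 2.69, 1.94, 1.31 and 2.11 from D0 to D180, while Marco, a scavenger receptor, was well above background on 11 arrays. The mean of the macrophage list was 11.33 to 11.64 in Exposed D28 against 10.81 to 11.26 in Control D28, and 11.27 to 11.76 in Exposed D3 against 10.98 to 11.23 in Control D3. Of 8 markers of other lung cells, Hopx, of alveolar type 1 cells, was called lower at D3 (-0.65). Their part in the members' differences was not tested.

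Clock genes also differed between exposed and control lungs and between control times. Dbp, an output factor of the circadian clock, read 15.31 ± 0.17 (SD, n = 5) in Control D0 and 15.31 ± 0.14 in Control D3, and then 10.80 ± 0.16, 10.88 ± 0.21 and 10.80 ± 0.21 in the controls of D28, D90 and D180. In exposed lungs it read 13.36 ± 0.22, 12.82 ± 0.44, 14.07 ± 0.79, 14.24 ± 0.55 and 13.78 ± 0.41 from D0 to D180, between both control levels. Exposed minus control was -1.95 and -2.49 at D0 and D3 and 3.27, 3.36 and 2.97 at D28, D90 and D180, with limma adjusted p from 3.85e-13 to 4.31e-08. Arntl (BMAL1), a core activator of the clock, went the other way, by 1.26, 1.67, -1.47, -1.58 and -1.09, and Nr1d1 (REV-ERB-alpha), a core repressor, by -3.27, -1.31, 3.04, 2.22 and 3.03. Of 15 clock genes measured, 3 were higher and 6 lower at D0, 4 and 6 at D3, and 7 and 4 at D28. At D90, 6 were higher and 4 lower, and at D180, 5 and 4.

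Between Control D0 and D3, where Scd1 and Scd4 were called, 1 of the 15 clock genes was called higher and 2 lower. Dbp differed by 0.00 (limma adjusted p = 0.998) and Arntl by 0.37 (adjusted p = 0.255), while the period gene Per2 fell by 0.92 (adjusted p = 0.00299) and Npas2, a partner of Arntl, rose by 0.62 (adjusted p = 0.0397). From D3 to D28, 4 were called higher and 7 lower: Dbp fell by 4.50 (adjusted p = 1.78e-17) and Arntl rose by 2.58 (adjusted p = 4.11e-14), where the members differed by 0.18, 0.02 and -0.08. Slide-centred r of Scd1 over the 50 arrays was -0.53 with Dbp, 0.49 with Arntl and -0.31 with Nr1d1, and with group means removed -0.05, 0.08 and -0.06. The hour of necropsy is not given in the sources used here, and its part in the members' differences was not tested.

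**Figure D5:**
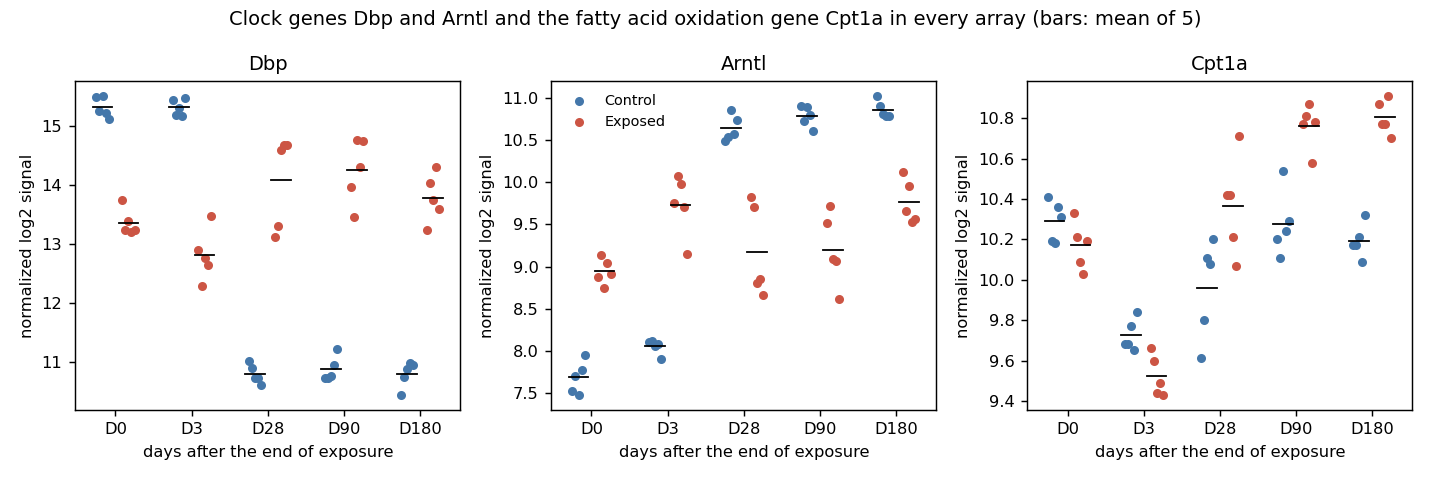
Normalized log2 signal (y axis) of the clock genes Dbp and Arntl and of Cpt1a in each array by day after the end of exposure, controls in blue and exposed in red; bars are means of 5 rats. Control Dbp lies at 15.31 at D0 and D3 and at 10.80 to 10.88 from D28 on, and exposed rats lie between.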

How the data were processed

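Lung RNA of 50 rats (100 ng each) was labelled with cyanine 3 and hybridized to single-colour Agilent 8x60K rat arrays. The deposited files hold, per spot, the intensity measured by Agilent Feature Extraction (11.0.1.1 in the submitters' processing notes and in the file headers), with background and spatial trend removed by the authors' software in the processed signal; per the file headers probe positions refer to rn4. The authors also deposited a table of quantile-normalized intensity, used as an alternative. Marks of spot quality (0 or 1) in the deposited files were set by that software. In 22 files 84 spots had altered gene names, and the name that most files gave was used.

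From these, log2 processed signals were averaged over the spots of a probe after outlier spots were left out, and quantile-normalized across arrays. Probes were kept where 5 or more arrays exceeded percentile 95 of that array's negative controls (29549 of 30367). limma 3.58.1 (R 4.3.3) was fitted with 1 mean per group over all arrays, with Benjamini-Hochberg adjustment over probes; a call needed 1.5-fold and an adjusted p under 0.05. Each gene (25208) was represented by its probe of highest mean signal. The fit was tested on simulated data with 2-fold changes, where not every changed probe was called, so that a gene not called may still differ. The study's methods add a batch correction, which was tried here as slide in the fit; animals are separate rats, so errors hold the spread between rats, and the number of arrays limits the precision.

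The members and all gene lists were chosen with earlier results of these data known. Named list genes were those fixed by name and up to 4 others per list with the largest change among those called, and likeness genes were the 5 of highest and the 3 of lowest r. Alternatives were scaling to percentile 75, normexp background correction (offset 50), the authors' table, no filter or a filter of 25 arrays, slide or replicate number as a block, arrays of that day alone, 1 probe per gene, outlier spots kept, other fold limits and each array left out. After the data were seen, fits without Exposed D3 replicate 1 and Control D3 replicate 5, and without Control D28 replicates 4 and 5 and Exposed D180 replicate 2, were added. Protein sequences were not used here.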

Additional observations from a re-analysis of the deposited data

Results flagged for a closer look

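Of 30 groups of 5 arrays (3 member probes in 10 groups), 3 held an array whose gap to its nearest neighbour was over 0.71 of the group's range; such a gap arises by chance in about 1 of 20 groups. Scd1 read 13.94 in Control D3 replicate 5, where the next lowest control read 14.93. Scd1 read 13.45 in Exposed D180 replicate 2, where the next highest read 13.23. Scd4 read 12.06 in Control D0 replicate 1, where the next highest read 11.53. Exposed D180 replicate 2 and Control D28 replicates 4 and 5 have animal numbers that lie among those of the other group.

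The exposure differences had opposite signs between times, with all 5 exposed rats on one side of all 5 controls at D3 and on the other side at the time compared; these gaps between times were not tested. For Scd1 the log2 difference at D3 exceeded that at D0 by 1.41, that at D28 by 2.34, that at D90 by 2.14 and that at D180 by 2.15. For Scd4 it exceeded that at D28 by 1.77, that at D90 by 1.63 and that at D180 by 1.85. For Scd it exceeded that at D90 by 0.84 and that at D180 by 0.94.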

How the results depend on the processing

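All 15 exposure differences of the members stayed within 1 SD between rats of the values above under the alternatives run. This yardstick is wide, since leaving out 1 array of 5 cannot move a difference that far. The filters, 1 probe per gene, a replicate block and arrays of that day alone leave the differences unchanged by construction. The Scd1 difference ranged from 0.44 to 0.74 at D3 and from -1.80 to -1.46 at D28, and that of Scd at D0 from -0.01 to 0.08. Without Control D28 replicates 4 and 5 and Exposed D180 replicate 2, the Scd1 difference was -1.80 at D28 and -1.55 at D180. Of 312 values for control times, 304 kept their side of the threshold. The Scd1 difference of Control D90 from D28 was called at -0.61 with normexp correction, -0.59 in the authors' table and -0.66 without the arrays of doubtful animal number; leaving out single arrays gave -0.64 to -0.46, called without Control D28 replicate 3 or 5 or Control D90 replicate 1. With slide as a block, Control D180 minus D0 was 0.85 for Scd1 and 0.64 for Scd4, no longer called. D0 and D180 share no slide, and only Exposed D3 replicate 1 joins their slides, so this fit has little precision for that contrast. The number of lipid genes called (11, 12, 1, 1 and 2 from D0 to D180) became 34, 32, 12, 8 and 5 with no fold limit, 2, 4 and 1 at D0, D3 and D180 with a 2-fold limit, 1 at D180 with normexp or the authors' table, 0 at D28 with arrays of that day alone and 2 at D28 without the arrays of doubtful animal number. Leaving out single arrays gave 7 to 14 at D3, with 7 without Control D3 replicate 5, and 1 to 2 at D28, with 2 without Exposed D28 replicate 1 or 4. Clock calls at D28 fell from 11 to 7 with arrays of that day alone or a 2-fold limit, and at D180 from 9 to 4 with a 2-fold limit. The r of Hyou1 with Scd4 was -0.06 once group means were removed. Replicate numbers did not pair the rats (25 pairs, r from -0.339 to 0.449, 8 over 0.1); with a replicate block, Control D3 minus D0 of Scd1 was 0.86 (limma adjusted p = 0.000479) and no call of a member changed. The cause of these shifts was not tested. With 5 rats a group, differences near the 1.5-fold limit depend on single arrays, as for Scd1 and Scd4 at D3, and 1 probe per gene reports on the transcripts that hold it.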
